A study of Mus musculus with 10 samples.

Results

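The 10 genes described are the receptors Notch1, Notch2, Notch3 and Notch4, the ligands Jag1, Jag2, Dll1 and Dll4, and the target genes Hes1 and Hey1. They were found by symbol in the gene column of the authors' deposited RNA-seq table, where they take up 11 of 27968 rows, because Notch1 has 2. The tumours grew under the skin of immune-compromised mice from C57BL/6 embryonic fibroblasts that all carried RAS, given as RAS-G12V (the activated G12V allele) in the name of the authors' table, and DNP53, a dominant-negative p53, and all animals were dosed with siRNA against the HA tag. In 3 tumours, from 2 numbered lines, cyclin D1 bore the tag that this siRNA targets, and in 2 tumours, from 2 other lines, cyclin D1 was untagged. The 5 libraries, each run on 2 lanes, are reduced in the authors' deposited table to 1 abundance per condition, C1 and C2. The bracketed part of the sample titles opens with differing strings whose meaning the labels do not give. Each of these strings is found in both groups of tumours. Abundance is in FPKM, which scales a gene's fragments by transcript length and library size, so levels of different genes can be set side by side. No source used here says which condition is the tagged one, so directions are given as C2 against C1 and say nothing of the tag. Values per tumour are not given, so the text prints no SD, and sequencing depth could not be read. Whether tumours or lanes were the replicates behind the test is not given either.

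Notch receptors are single-pass membrane proteins that bind Jagged or Delta-like ligands on a neighbouring cell. Binding lets ADAM proteases and gamma-secretase cut the receptor, and its freed intracellular part joins the DNA-binding protein RBPJ and Mastermind coactivators to switch on genes such as Hes1 and Hey1, which encode transcriptional repressors. Notch3 is best known from vascular mural cells, Notch4 and Dll4 from endothelium, and Dll1 and Jag1 from embryonic patterning and epithelia.

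RBPJ sites were looked for at the start sites of the genes, in RefSeq windows of 300 bases (250 before the start and 50 after, build GRCm38.p6). Of the members, 8 matched a window by symbol, with 9 windows since Dll1 has 2 starts. Hes1 and Hey1 are named only. The core letters GTGGGAA, on either strand, were in 0 of the 9 member windows and in 6.38% of the 32851 windows of all genes. The class C site of Hes and Hey repressors, CACGNG on either strand, was in 7 of the 9 and in 27.5% of all windows. A match to one motif may share bases with a match to the other. The member windows were richer in G and C, with a median of 63.7% against 52.7% over all windows. No match says only that these letters are not in this window. The windows of Notch3 and Dll1 are shown because these are the members with a window that were called, each with its CACGNG match in capitals. Those of Hes5 and Hey2, relatives of Hes1 and Hey1, are shown to let the RBPJ letters be seen, since each holds GTGGGAA once on each strand (capitals).
Notch3, chr17:32166841-32167140, minus strand: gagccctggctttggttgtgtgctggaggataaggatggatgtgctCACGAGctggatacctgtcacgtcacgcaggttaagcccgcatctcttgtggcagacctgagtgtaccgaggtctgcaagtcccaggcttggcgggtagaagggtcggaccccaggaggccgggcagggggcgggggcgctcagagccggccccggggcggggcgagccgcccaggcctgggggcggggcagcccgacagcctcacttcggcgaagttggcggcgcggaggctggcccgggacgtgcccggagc
Dll1 upstream start, chr17:15376883-15377182, minus strand: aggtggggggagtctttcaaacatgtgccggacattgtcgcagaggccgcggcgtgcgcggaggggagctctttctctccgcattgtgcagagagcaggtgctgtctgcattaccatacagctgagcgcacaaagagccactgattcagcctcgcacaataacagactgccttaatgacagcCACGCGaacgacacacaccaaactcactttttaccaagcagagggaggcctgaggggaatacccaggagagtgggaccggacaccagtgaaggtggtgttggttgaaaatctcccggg
Dll1 downstream start, chr17:15375774-15376073, minus strand: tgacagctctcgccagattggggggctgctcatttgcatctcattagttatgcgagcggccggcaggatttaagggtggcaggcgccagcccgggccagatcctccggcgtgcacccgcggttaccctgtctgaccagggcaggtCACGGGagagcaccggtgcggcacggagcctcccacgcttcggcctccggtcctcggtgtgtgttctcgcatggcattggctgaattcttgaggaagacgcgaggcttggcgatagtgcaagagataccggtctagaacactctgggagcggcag
Hes5, chr4:154960673-154960972, plus strand: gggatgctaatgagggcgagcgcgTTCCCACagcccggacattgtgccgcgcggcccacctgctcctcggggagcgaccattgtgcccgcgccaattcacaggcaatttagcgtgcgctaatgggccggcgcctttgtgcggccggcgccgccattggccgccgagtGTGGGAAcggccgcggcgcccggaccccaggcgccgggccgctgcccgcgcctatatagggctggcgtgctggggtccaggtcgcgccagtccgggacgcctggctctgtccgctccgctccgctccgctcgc
Hey2, chr10:30842734-30843033, minus strand: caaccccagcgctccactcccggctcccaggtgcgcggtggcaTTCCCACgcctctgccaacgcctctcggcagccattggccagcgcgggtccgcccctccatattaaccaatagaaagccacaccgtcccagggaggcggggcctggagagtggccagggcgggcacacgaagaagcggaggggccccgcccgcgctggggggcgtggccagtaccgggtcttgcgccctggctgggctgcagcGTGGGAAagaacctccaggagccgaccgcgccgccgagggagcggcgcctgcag
In capitals, the CACGNG match begins at base 47 of the Notch3 window, base 183 of the upstream Dll1 window and base 146 of the downstream one. The GTGGGAA matches begin at bases 25 and 168 in Hes5 and at bases 44 and 247 in Hey2. Windows with at least 2 such matches made up 0.256% of all windows. Cuffdiff tested neither of these relatives. Hes5 was listed at 0 in both conditions and Hey2 at 0.291 FPKM under C1 against 0.212 under C2 by the authors' deposited table.

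Of the 10 members, 3 were called higher in C2 and 0 lower: the receptor Notch3, the ligand Dll1 and the target Hey1. A call means a q, Cuffdiff's p after adjustment over all tested rows, under 0.05 in the authors' deposited table. Over all 16681 tested rows 7.12% were called, 4.2% higher and 2.92% lower, against 30.0% of the members. No test is given for that share, since the members were chosen with earlier results of these data known. Each called member has a different role, and in each role at least 1 other member was not called. The 7 not called had log2 ratios from -0.27 to 0.62. Their direction turns on the row used for Notch1: with its more abundant row 6 had lower values in C2 and 1, Jag1, a higher one, and with its other row, or both summed, 5 were lower and 2 higher. The median log2 ratio of the 10 turned too, from -0.05 with the more abundant row to 0.28 with the other and 0.03 with both summed, against 0.05 over tested rows with a finite ratio. Single Notch1 values in the text are those of the more abundant row unless another is named.

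**Figure D1:**
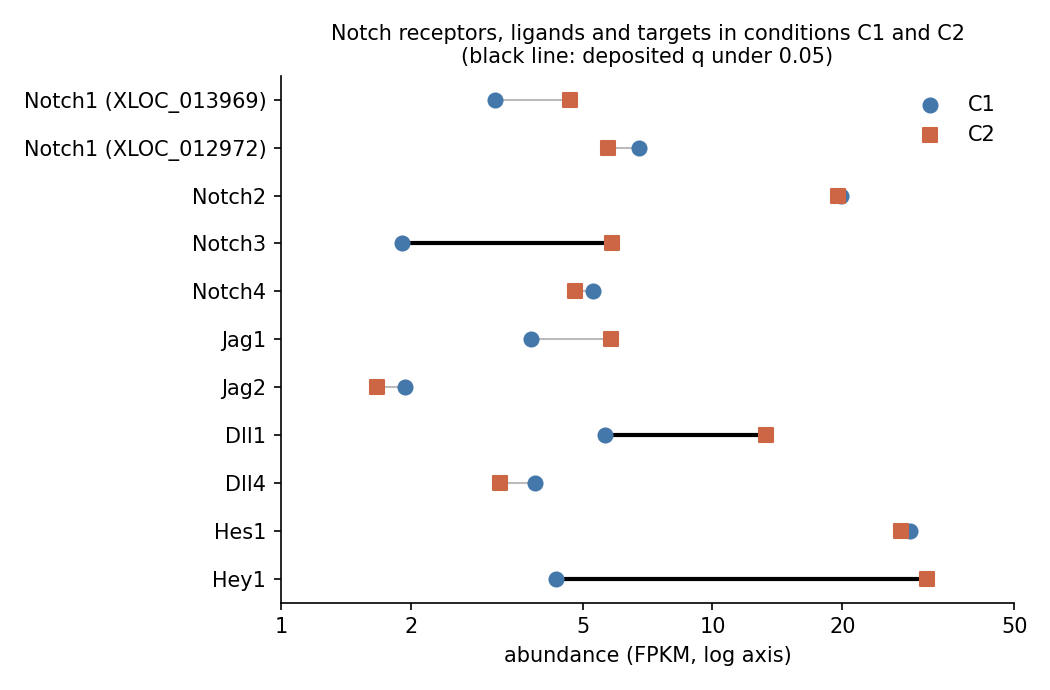
Abundance (FPKM, log axis) of each row of the 10 genes in C1 (circles) and C2 (squares), 1 deposited value per condition, with black lines for q under 0.05. Hey1, Notch3 and Dll1 stand out to the right in C2, while the symbols of Notch2 and Hes1 nearly coincide.

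Among the receptors, Notch3 was the one called. Notch3 (XLOC_010693, chromosome 17, 32257703 to 32303797, MGSCv37) had 1.91 FPKM under C1 against 5.86 under C2 by the authors' deposited table. It was the lowest of the receptors in C1. In C2 it was 0.132 FPKM above the more abundant Notch1 row, but below Notch1 with both rows summed (10.4 FPKM), by values without an error. This was a 3.07-fold rise, a log2 ratio of 1.62, for which the authors' deposited table gives p = 5e-05 and q = 0.00167. That p is the smallest in the table and is shared by 500 rows, so Notch3 cannot be ranked among them. A ratio as high or higher was found in 828 tested rows, 4.96% of all.

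Notch2, a broadly expressed receptor (XLOC_015549, chromosome 3, 97817460 to 97954290), was the most abundant receptor in both conditions, with 19.8 FPKM under C1 against 19.6 under C2 by the authors' deposited table. Its log2 ratio was -0.02 (q = 0.989). Notch4, the receptor named above for endothelium (XLOC_010178, chromosome 17, 34701239 to 34725633), had 5.30 FPKM under C1 against 4.81 under C2, with a log2 ratio of -0.14 (q = 0.930). Neither was called. A p that misses the threshold does not show that the conditions were alike.

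Notch1, the receptor best studied in lymphocytes and blood vessels, has 2 rows with the same coordinates (chromosome 2, 26301195 to 26359342) that point in opposite directions. XLOC_012972 had 6.76 FPKM under C1 against 5.73 under C2 by the authors' deposited table (log2 ratio -0.24, q = 0.908). XLOC_013969 had 3.13 against 4.68 FPKM there (log2 ratio 0.58, q = 0.471). Neither row was called, and their sum gave a log2 ratio of 0.074. The order of the row numbers bears on which is which: within each of 20 chromosomes the numbers run through genes of the plus strand and then through genes of the minus strand, and 97.8% of 21155 named genes lie in the stretch of their own strand by GENCODE M21. Notch1 is a minus-strand gene, and XLOC_013969 lies in the minus stretch, whereas XLOC_012972, the more abundant row, lies in the plus stretch. The same holds for 362 of 380 symbols with a pair of rows at the same coordinates, which have 1 row in each stretch. The libraries were stranded, but no source used here says whether reads were assigned by strand, so reads of Notch1 and of any transcript on the other strand cannot be told apart with certainty.

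Among the ligands, Dll1 was called higher in C2. Dll1, a Delta-like ligand (XLOC_010536, chromosome 17, 15504317 to 15512787), rose 2.36-fold in C2. The authors' deposited table gives it 5.63 FPKM under C1 against 13.3 under C2, with p = 0.00045 and q = 0.0104, and the log2 ratio was 1.24. It was the most abundant of the ligands in both conditions in the deposited values. At a q under 0.01, where 4.21% of tested rows were called, the call of Dll1 is lost, and 2 members, Notch3 and Hey1, remain. With rows under 1 FPKM left out, 3 members were called against 7.23% of the rows kept.

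Jag1, a Jagged ligand (XLOC_014605, chromosome 2, 136907186 to 136942256), had 3.80 FPKM under C1 against 5.83 under C2. Its log2 ratio of 0.62 did not pass, with p = 0.0666 and q = 0.344 from the authors' deposited table. Its relative Jag2 (XLOC_005627, chromosome 12, 114146016 to 114167706) was the scarcest ligand in both conditions, at 1.94 and 1.67 FPKM (log2 ratio -0.21, q = 0.909). Dll4, the ligand of sprouting vessels (XLOC_013432, chromosome 2, 119146934 to 119161402), had 3.88 FPKM under C1 against 3.22 under C2 (log2 ratio -0.27, q = 0.851). Jag1 and Dll4 thus lay close together in C1 and apart in C2, but no spread is given by which to judge either gap.

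The targets Hes1 and Hey1 went apart. Hey1, a repressor used in vessel and heart development (XLOC_015769, chromosome 3, 8663358 to 8667038), rose 7.22-fold in C2, with 4.34 FPKM under C1 against 31.4 under C2 by the authors' deposited table. For Hey1 the authors' deposited table gives p = 5e-05 and q = 0.00167. Its log2 ratio was 2.85, and 406 tested rows, 2.43% of all, had a ratio as high or higher. Hes1, the repressor most widely read as a sign of Notch activity (XLOC_009142, chromosome 16, 30065442 to 30067882), had 28.8 FPKM under C1 against 27.4 under C2. The authors' deposited table gives Hes1 p = 0.830 and q = 0.968, and its log2 ratio was -0.07. The ratio of Hey1 to Hes1 abundance was 0.151 in C1 and 1.15 in C2. The difference between the ratios of these 2 genes was not tested, since the deposited table gives no error for them.

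**Figure D2:**
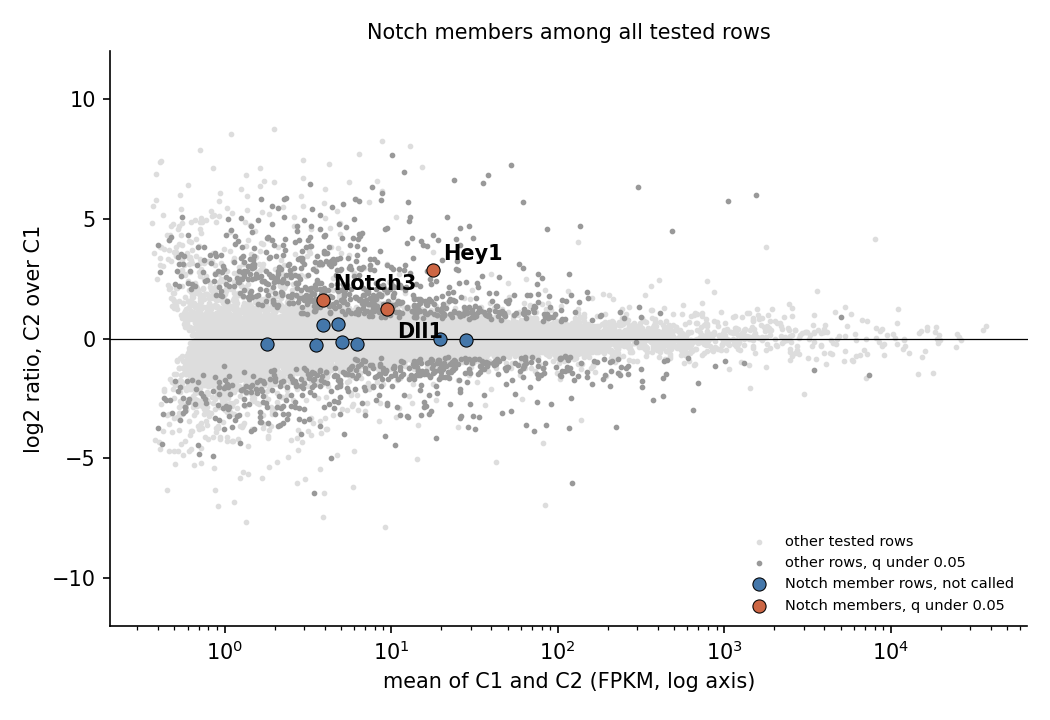
Log2 ratio of C2 over C1 against mean abundance (FPKM, log axis) for tested rows with a finite ratio, with the 11 member rows in colour and called rows darker. Hey1 (2.85), Notch3 (1.62) and Dll1 (1.24) lie among the called rows above 0, and the other 8 member rows lie between -0.27 and 0.62.

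The makeup of each role shifted with the called member. Summed over the 4 receptors, abundance was 33.8 FPKM under C1 against 36.0 under C2. Notch2 held 58.7% of the receptor sum in C1 and 54.4% in C2, and Notch3 held 5.65% and 16.3%. With the other Notch1 row Notch2 held 65.7% and 56.0%, and Notch3 6.33% and 16.8%. With both Notch1 rows summed Notch2 held 53.7% and 48.1%, and Notch3 5.17% and 14.4%. The ligand sum was 15.2 FPKM under C1 against 24.0 under C2, of which Dll1 held 36.9% and 55.3% and Dll4 25.5% and 13.4%. Jag1 held nearly the same share of the ligands in each condition, 24.9% and 24.3%. These are ratios of the deposited values, without an error. In order of abundance Hes1 and Notch2 led the 10 genes in C1, and Hey1, Hes1 and Notch2 in C2, while Notch3 was number 10 in C1.

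**Figure D3:**
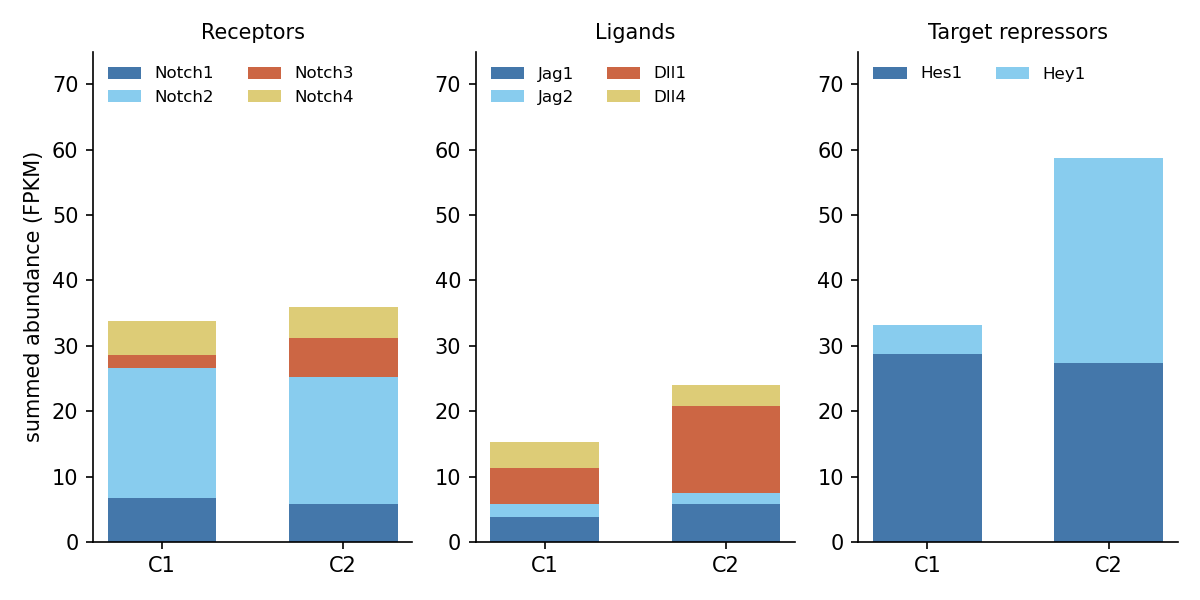
Abundance (FPKM) of receptors, ligands and target repressors stacked by gene in C1 and C2, with the more abundant Notch1 row. Dll1 and Hey1 fill most of the extra height of the C2 bars of their roles, and the receptor bars are of nearly equal height with more Notch3 in C2.

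The rest of the pathway was described with 7 further lists of 56 genes, in 55 rows, of which 47 were tested and 8 were not. In these lists 2 rows were called higher in C2 and 0 lower, or 4.26% of those tested against 7.12% of all tested rows. An unadjusted p under 0.05 was found for 4 of the 47, against 17.1% of all tested rows. The median log2 ratio of the 47 was 0.04. The called genes were Dlk1 and Id2. Dlk1, a membrane protein related to the Delta-like ligands and imprinted, rose in C2 with a log2 ratio of 3.47 (q = 0.00167), having 1.03 FPKM under C1 against 11.4 under C2 by the authors' deposited table. Its relatives Dlk2 (log2 ratio -0.50, q = 0.853) and Dner (-0.16, q = 0.957) were not called, and Dll3, at 0.0309 and 0.0251 FPKM, was not tested. Id2, an inhibitor of basic helix-loop-helix factors, rose with a log2 ratio of 1.58 (q = 0.00167), with 24.6 FPKM under C1 against 73.9 under C2.

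The lists that send, shape and cut the proteins held no call by Cuffdiff (0), nor an unadjusted p under 0.05 (0), where all tested rows had 7.12% and 17.1%. With so few rows this says little about these lists. Their lowest q was 0.317. In the list of ligand endocytosis 3 of 4 genes were tested. Its most abundant gene, the ubiquitin ligase Mib1, had 11.0 FPKM under C1 against 12.9 under C2 by the authors' deposited table, and a second Mib1 row at the same coordinates had 10.9 and 10.4. Of 5 glycosyltransferase genes 4 had lower values in C2, and the most abundant, Poglut1, which adds glucose to the receptor, had 23.3 and 21.9 FPKM (q = 0.955). Lfng, a Fringe enzyme that tunes the response to Delta and Jagged, had 5.91 and 5.87 FPKM (q = 0.997). Of 9 rows for cleavage enzymes 6 had higher and 3 lower values. Adam10, the protease of the ligand-induced cut, had 88.6 FPKM under C1 against 61.9 under C2, and its log2 ratio of -0.52 did not pass (q = 0.317). Aph1b and Aph1c share a joined row, so their values cannot be told apart.

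The nuclear step held no call by Cuffdiff (0 of 12 rows, against 7.12% of all tested rows), with 1 unadjusted p under 0.05, that of Snw1, a coregulator that binds the receptor's inner part (log2 ratio 0.69, q = 0.206). Rbpj itself had 33.4 FPKM under C1 against 32.0 under C2 by the authors' deposited table (log2 ratio -0.06, q = 0.967), and Maml1, a Mastermind coactivator, had 10.2 and 11.5 FPKM (q = 0.866). The most abundant gene of the list, the corepressor Ctbp1, had 81.8 and 80.1 FPKM (q = 0.983). Among inhibitors and turnover genes, 8 of 9 were tested and none was called (0), with 1 unadjusted p under 0.05. Dtx3l, a Deltex ubiquitin ligase also known in the interferon response, came nearest, with 1.58 FPKM under C1 against 4.78 under C2. Its log2 ratio was 1.59, with p = 0.00595 and q = 0.0720 in the authors' deposited table. The most abundant, Dtx3, had 45.3 and 46.4 FPKM (q = 0.985).

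Of 12 genes listed as other targets and relatives of Hes1 and Hey1, 7 rows were tested, 3 with higher and 4 with lower values in C2. The tested rows include those of Id1, Id2, Id3 and Id4, which are not of the Hes and Hey family. Whether Notch drives the Id genes in these tumours was not tested. Of the tested rows 1, Id2, was called higher, against 4.2% of all tested rows. With so few rows this says little about the list. Differences between these genes and Hey1 were not tested. Nrarp, a feedback inhibitor that Notch induces, had 4.85 FPKM under C1 against 7.52 under C2 by the authors' deposited table (log2 ratio 0.63, q = 0.423). Heyl had 1.48 and 1.25 FPKM (log2 ratio -0.25, q = 0.892), and Hes6, a relative that opposes Hes1, had 40.8 and 28.2 FPKM (log2 ratio -0.53, q = 0.425). Hes2, Hes3, Hes5, Hes7 and Hey2 were not tested. The most abundant row, Id1, is joined with H13 at 206 and 175 FPKM (q = 0.883), so Id1 alone cannot be read.

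**Figure D4:**
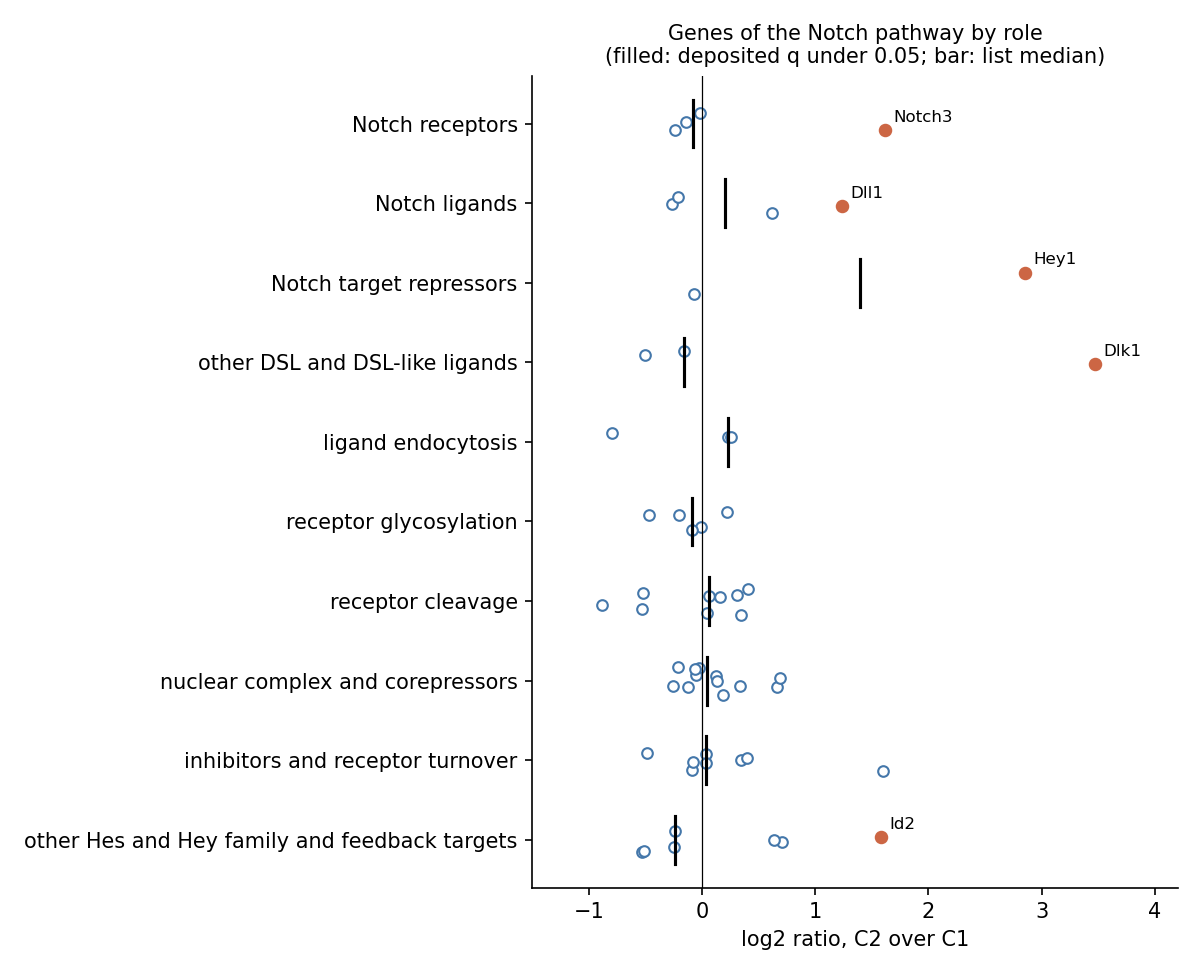
Log2 ratio of C2 over C1 for each tested gene of the Notch pathway by role (filled circles for q under 0.05, bars for list medians). Notch3, Dll1, Hey1, Dlk1 and Id2 are the filled points, all above 1, while genes for endocytosis, glycosylation, cleavage and the nuclear complex lie within 1 log2 unit of 0.

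Several cell types of a dissected tumour can carry these genes, and in whole tumours fewer cells of a type and less RNA per cell cannot be told apart. Fibroblast markers were abundant in both conditions, with the 10 of them summing to 4410 FPKM under C1 against 1732 under C2 by the authors' deposited table. Of these 6 were called lower and 0 higher, against 2.92% and 4.2% of all tested rows. The calls did not follow the size of the drop: Col1a1 was called at a log2 ratio of -0.15 (q = 0.0138). Col1a2 (-1.03, q = 0.134) and Col3a1 (-1.11, q = 0.121) were not called. For Pdgfra the more abundant row was called (q = 0.0123) and the other was not (q = 0.156). Grafted cells and host are both mouse, so these values cannot check the labelled cell of origin. Of 12 epithelial markers 10 were called higher and 0 lower, against 4.2% and 2.92% of all tested rows. Their sum was 644 FPKM under C1 against 1168 under C2, and the median log2 ratio was 3.23. Krt19 is joined with Krt13 and Krt17 in 1 row of that sum, at 33.0 and 136 FPKM (q = 0.127). The defining epithelial adhesion proteins Epcam and Cdh1 rose from 12.0 to 105 and from 3.86 to 31.5 FPKM, and no marker of the list was at 0 in either condition. Krt18, the most abundant, had 516 and 514 FPKM (q = 0.998). The part of epithelial cells in the results for Notch3, Dll1 and Hey1 was not tested.

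Most vascular markers had lower values in C2, while their calls went both ways. Called were 2 of 15 endothelial rows and 2 of 9 tested pericyte and smooth muscle rows, against 7.12% of all tested rows. With so few rows these shares say little. Of 15 endothelial markers 13 had lower values in C2, with a median log2 ratio of -0.54 and sums of 217 FPKM under C1 against 187 under C2 by the authors' deposited table. Tek, an angiopoietin receptor, was called lower (log2 ratio -1.53, q = 0.0146) and Cdh5, the endothelial cadherin, higher (0.90, q = 0.0370). Of 9 tested pericyte and smooth muscle markers 8 had lower values, with a median of -0.68 and sums of 202 and 204 FPKM over 10 rows. Rgs5, a pericyte marker, was called higher (42.5 to 101 FPKM, log2 ratio 1.25, q = 0.0351) and Mcam lower (-0.88, q = 0.0401). Neither list was at 0 for any marker. At a q under 0.01, where 4.21% of all tested rows were called, both lists had 0 calls. The part of vascular cells in the values of Notch3, Notch4 and Dll4 was not tested.

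Markers of the remaining cell types were lower in C2 or nearly level. Skeletal muscle markers summed to 1328 FPKM under C1 against 109 under C2, with 7 of 9 tested called lower and 0 higher. The called row of Myh4 is joined with Myh1, and without joined rows 6 were called. The satellite cell factor Pax7 was listed at 0 in both conditions. Lymphocyte markers reached at most 3.86 FPKM under C1 against 0.513 under C2, with 3 of 4 tested called lower and 0 higher, and the T-cell genes Cd3e and Cd3g were below 0.05 FPKM. Macrophage markers summed to 383 and 392 FPKM, of which 245 and 223 came from a row that joins Lyz1 and Lyz2. Of the 8 rows 1, Cd14, was called higher. Over all tested rows 4.2% were called higher and 2.92% lower. The part of these cells in the values of the Notch genes was not tested.

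**Figure D5:**
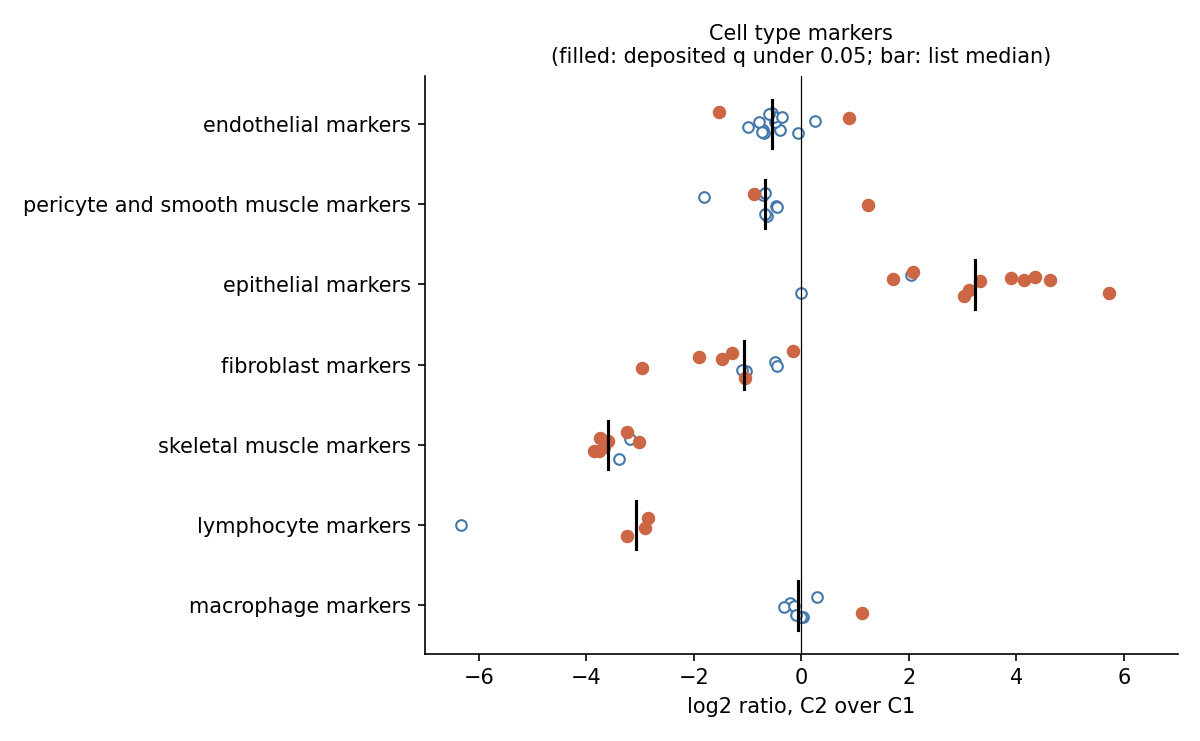
Log2 ratio of C2 over C1 for tested markers of 7 cell types (filled circles for q under 0.05, bars for list medians). By median, epithelial markers lie furthest to the right (3.23) and skeletal muscle markers furthest to the left (-3.61). The lowest single point is a lymphocyte marker (-6.34). Most endothelial and mural markers lie left of 0, with medians of -0.54 and -0.68.

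The authors' gene ontology analysis was run on the called list, so the members under its terms are called ones by construction. In the authors' deposited table of 919 enriched terms, Notch3 is listed under 62 terms, Dll1 under 55 and Hey1 under 54. In the authors' selection of 28 terms Notch3 and Dll1 appear under nervous system development and Hey1 under vasculature development and blood vessel development.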

How the data were processed

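Messenger RNA of subcutaneous tumours was sequenced as stranded libraries with single reads of 100 bases, per the labels' protocols. Dosing began once a tumour measured 500 mm3, with 5 siRNA doses a day, and tissue was taken 30 minutes after the last. Per the series' design text the authors mapped reads to MGSCv37 with Bowtie and TopHat and called abundance and differences with Cufflinks, and per the submitters' processing notes the versions were Cufflinks 2.1.1, TopHat2 2.0.8b and CASAVA 1.8.2. The deposited FPKM values are taken as such from the Cuffdiff layout, since the header names no unit. All p-values and q-values come from the authors' deposited table, whose q equals, to within 5.17e-07, a Benjamini-Hochberg adjustment of its p over tested rows. The deposited log2 fold, with 516 unreadable cells, was used only as an alternative.

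Log2 ratios were computed as C2 over C1 with no pseudocount. Of 27968 rows, 11287 had no valid test. For a symbol with several rows the one of highest mean was used, and joined rows counted once per list. The members and lists were chosen with earlier results of these data known. The rule named all members and, per list, called genes up to 4 and the most abundant. Most markers are given only as counts and sums. Dlk2, Dner, Dll3, Lfng, Maml1, Rbpj, Snw1, Nrarp, Heyl, Hes5, Hes6, Hey2, Dtx3l, Epcam, Cdh1, Col1a1, Col1a2, Col3a1, Pax7, Cd3e, Cd3g and the genes with a second row were chosen after their values were seen. Genes of like pattern are not named, since 2 values define no pattern. The adjustment code was tested on simulated data. Software was pandas 2.3.3, numpy 2.4.6, matplotlib 3.10.9 and SciPy 1.17.1 under Python 3.11.15.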

Additional observations from a re-analysis of the deposited data

How the results depend on the processing

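No paired analysis was possible because the deposited table gives only 1 value per condition, which also kept the leaving out of single replicates from being run. The use of the Notch1 row among minus-strand genes, of the members' median by Notch1 row and of lists without joined rows was chosen after seeing the data. Without joined rows the skeletal muscle markers had 6 calls instead of 7, and the number of calls in the other pathway and marker lists was unchanged. Directions and calls of the 10 members were unchanged with pseudocounts of 0.1 and 1, centring on the median ratio of rows with at least 1 FPKM (0.06), the deposited fold and a minimum of 1 FPKM with p adjusted again. Notch1 turned from -0.24 to 0.58 with its other row, not called either way (q = 0.471), and was 0.074 with both rows summed. The median of the members turned with it, from -0.05 to 0.28 and 0.03. At q under 0.01, where 4.21% of all tested rows were called, Dll1 (log2 ratio 1.24, q = 0.0104) was no longer called. Of the members 2 remained (Notch3 and Hey1). Endothelial, pericyte and smooth muscle, and lymphocyte markers then had 0 calls each. Under Bonferroni adjustment no row of the table can pass, as the smallest p of 5e-05 becomes 0.834: Notch3 (1.62), Dll1 (1.24) and Hey1 (2.85) lost their calls, and the number called was 0 for the members, for both pathway lists with a call and for all 7 marker lists, by construction. Depth is unknown, so how far low values such as those of Jag2 and Notch3 in C1 are limited by counting cannot be given.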

Other observations

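Both Notch1 rows follow a feature of the table that touches other pathway genes too. Mib1 has rows at 11.0 and 12.9 FPKM (XLOC_011267, in the stretch of its own plus strand) and at 10.9 and 10.4 FPKM (XLOC_011568, in the minus stretch) in C1 and C2. Fbxw7, a ubiquitin ligase subunit that marks Notch for destruction, has rows at 5.60 and 7.10 FPKM on its own strand's stretch and at 1.94 and 1.17 FPKM on the other. For Notch1, Mib1 and Fbxw7 the row in the stretch of the gene's own strand has the higher value in C2 and the other row the lower one, with log2 ratios of 0.58, 0.23 and 0.34 against -0.24, -0.07 and -0.73, none of them called (lowest q = 0.471). For Pdgfra both rows are lower in C2 (-1.04 and -1.52). These 4 genes were picked from the lists because they have 2 rows. For Notch1 the row outside its own strand's stretch is the more abundant in both conditions, unlike those of Mib1, Fbxw7 and Pdgfra.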
